A study of Mus musculus with 64 samples.

Results

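The cytosolic ribosomal protein genes were taken as the protein-coding genes whose symbol on GRCm38 (GENCODE M21) starts with Rpl or Rps and a digit, together with Rplp0, Rplp1, Rplp2 and Rpsa, without symbols ending in -ps and without the Rps6k kinases. This gave 86 of 22028 protein-coding genes, 52 named for the large and 34 for the small subunit. All 86 are listed in the LSK and GMP counts and 83 in the CMP and MEP counts, where Rpl10l, Rpl3l and Rpl39l are not analysed here. After the filter on low counts 84 were tested in LSK and GMP and 83 in CMP and MEP. The symbol rule also takes Rps19bp1, a binding partner of Rps19 and not a ribosomal protein, and it leaves out Fau and Rack1, which encode parts of the small subunit under other names.

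The libraries came from C57BL/6 fetal liver at 13/14 dpc (14.5 dpc in 1 CMP HET library) with both Smarcd2 alleles intact (WT, Smarcd2 +/+), 1 disrupted allele (HET, Smarcd2 +/-) or both disrupted (KO, Smarcd2 -/-). Smarcd2 is a subunit of the BAF chromatin remodelling complex. LSK cells (Lin- Mac+/low Sca1+ cKit+), the stem and multipotent progenitor fraction, are represented by 5 WT, 9 HET and 9 KO libraries. Of the committed fractions, split by CD34 and CD16/32, common myeloid progenitors (CMP) have 3, 7 and 4 libraries in the same order, granulocyte-macrophage progenitors (GMP) 3, 7 and 3, and megakaryocyte-erythroid progenitors (MEP) 3, 7 and 4. The CMP, GMP and MEP gates name CD177 although c-Kit (CD117) is the antigen in the list of antibodies, and sex is given for LSK only. Titles carry a series number and a second number, here called the fetus number, and beyond these nothing in the labels says how separate the libraries of a group are, so p-values measure the spread between these libraries, which may be technical.

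Ribosomal proteins are made from single-copy genes scattered over the genome, in amounts that must match each other and the ribosomal RNA around which they fold into the large and the small subunit. Their messenger RNAs begin with a run of pyrimidines, the 5′ terminal oligopyrimidine or TOP tract, through which the mTOR pathway and Larp1 set their translation together. Loss of 1 copy of several of these genes causes Diamond-Blackfan anaemia, a failure of red cell production, and unassembled Rpl5 and Rpl11 can hold the p53 ligase Mdm2. Several members have paralogs or many processed pseudogenes whose sequences are nearly the same.

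WT and KO libraries followed their labels for Smarcd2 itself. Its level in LSK was 49.4 to 70.4 CPM (reads in the gene relative to all reads in genes of the library, after scaling) in WT and 0.845 to 1.94 in KO libraries, and in CMP, GMP and MEP it was 84.0 CPM or more in each WT library and 1.79 CPM or less in each KO library. HET libraries lay above every KO library, at 21.9 to 67.4 CPM in LSK, where they overlapped WT, and at 79.4 CPM or less in the other populations, below every WT library there. Smarcd2 did not pass between HET and WT in any population by edgeR (adjusted p = 0.307 in LSK, higher in the others). Reads in genes ranged from 1006090 to 24069833 per library, and no pair of libraries of a group agreed within sampling noise. As a check of the gates, the 6 GMP markers (Mpo, Elane, Prtn3, Ctsg, Csf1r and Fcgr3) summed to 11546 to 33207 CPM in WT GMP and to 117 to 271 CPM in WT MEP. One library stood apart in where its reads lay. GMP HET fetus 8 had 48.4% of its reads in Gm10800 and 21.9% in Gm10801, against medians of 0.724% and 0.286% in the other GMP libraries. It held 1360 member reads, and the other 63 libraries held 43224 to 466574. The summed share, the counts of members called between GMP and CMP or MEP, and the differences of KO effects are given with and without it. Other GMP values, among them HET ranges and the fits between GMP genotypes, include it.

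The 30 bases around the RefSeq start site of 10 members whose values are given below are shown here because the TOP tract lies there. The windows run from 15 bases before to 15 bases from the start on GRCm38.p6, on the strand of the gene, and capitals mark CTTTC. That string was searched on both strands from 10 bases before to 15 bases after the start. They lie at chr11:114668565-114668594 (Rpl38, plus strand), chr11:101442230-101442259 (Rpl27, plus), chr9:66946071-66946100 (Rps27l, plus, the first of its starts in the table), chr12:69184053-69184082 (Rpl36al, minus), chr10:23787195-23787224 (Rps12, minus), chr2:32961697-32961726 (Rpl12, plus), chr7:4792950-4792979 (Rpl28, plus), chr2:39005117-39005146 (Rpl35, minus), chr3:90213634-90213663 (Rps27, minus) and chr9:114982725-114982754 (Rps27rt, minus).
Rpl38: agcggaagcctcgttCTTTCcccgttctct
Rpl27: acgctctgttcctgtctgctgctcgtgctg
Rps27l: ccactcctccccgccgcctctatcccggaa
Rpl36al: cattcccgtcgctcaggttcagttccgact
Rps12: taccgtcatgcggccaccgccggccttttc
Rpl12: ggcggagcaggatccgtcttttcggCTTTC
Rpl28: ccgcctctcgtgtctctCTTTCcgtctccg
Rpl35: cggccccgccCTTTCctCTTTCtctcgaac
Rps27: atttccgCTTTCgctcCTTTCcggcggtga
Rps27rt: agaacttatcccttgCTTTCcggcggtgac

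CTTTC stood near the start of 16 of the 66 members in the RefSeq promoter table (24%) and of 994 of all 27025 genes in it (3.68%). On the reverse strand it stood in 2 members (3.03%) and in 3.54% of all genes. It stood in 3 of 10 other genes with TOP mRNAs and in 1 of 69 mitochondrial ribosomal protein genes. The letters of Rps27 and Rps27rt are alike after the last CTTTC, as the paralogs are along their transcripts. RefSeq starts can lie some bases from the start used in these cells, and 5 of the 9 genes that fell in LSK are in the table, of which Rpl38 alone holds the string.

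Reads were assigned by gene, so identity between members and other transcripts bears on every level. The share of 50-base windows of a member's transcript found in no other transcript had a median of 39.4% over the 86 members and was under 50% in 55 of them. Rps27 had the least unique sequence, 1.35%, and 4 members had only unique windows. Levels of members with little unique sequence are uncertain, because reads could be split with a paralog or a pseudogene. Rps27 and Rps27rt (8.92% unique) are 2 such members. In the 5 WT LSK libraries Rps27 was at 6.55, 6.27, 2.82, 6.81 and 7.19 CPM and Rps27rt at 207, 191, 178, 220.4 and 204 CPM, and in WT CMP Rps27 was at 431, 286 and 399 CPM and Rps27rt at 220.5, 154 and 180.4 CPM. Per kilobase of transcript the WT means were 17.2 ± 5.13 for Rps27 and 535 ± 43.5 for Rps27rt in LSK (SD, n = 5) and 1078 ± 221 and 495 ± 89.4 in CMP (SD, n = 3), so the order of the pair was opposite in the LSK and the CMP counts. The part of read assignment in this was not tested.

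**Figure D1:**
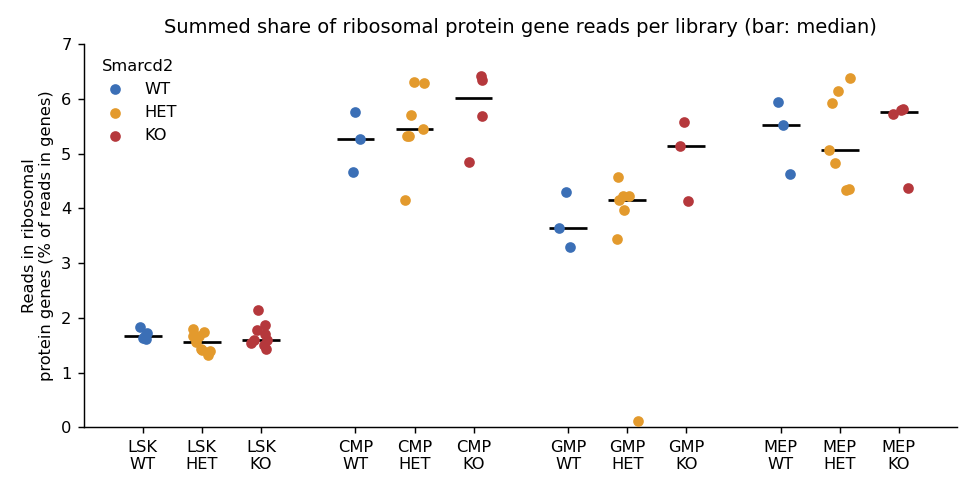
Reads in the ribosomal protein genes as a percentage of reads in genes (y axis), 1 point per library, by population and Smarcd2 genotype (x axis); bars are medians. LSK libraries lie between 1.32% and 2.14%, the other populations between 3.29% and 6.42% except GMP HET fetus 8 at 0.114%, and the genotypes of each population overlap.

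Summed over all members, the ribosomal protein genes took a similar share of reads in each genotype of LSK. The share had a median of 1.66% (lowest 1.61%, highest 1.83%) in WT, 1.55% (1.32% to 1.79%) in HET and 1.60% (1.44% to 2.14%) in KO, and the 3 ranges overlapped. In CMP the shares were 4.66% to 5.77% in WT, 4.15% to 6.30% in HET and 4.85% to 6.42% in KO. In MEP they were 4.63% to 5.95%, 4.34% to 6.37% and 4.38% to 5.82%, and here too the genotypes overlapped. In GMP the 3 WT libraries were at 4.30%, 3.64% and 3.29%, the HET libraries had a median of 4.15% (0.114% to 4.57%, or 3.44% to 4.57% without fetus 8), and the 3 KO libraries were at 5.57%, 4.13% and 5.14%. The GMP KO library of fetus 13 lay within the WT range and the other 2 above it. In bulk samples, fewer cells of a type and less RNA per cell cannot be told apart. The large-subunit genes took 53.6% to 62.2% of member reads in the 63 libraries other than GMP HET fetus 8.

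Members differed widely from each other in level. Per kilobase of transcript, the WT LSK mean was highest for Rpl4, a protein that lines the exit tunnel of the large subunit, at 1015 ± 41.3 CPM per kb (SD, n = 5), and the median over the 86 members was 153. In WT CMP Rps27a, made as a fusion with ubiquitin, was highest at 2207 ± 543 CPM per kb (SD, n = 3) and the median was 785. Rpl4 was again highest in WT GMP, at 1735 ± 430.4 (median 394), and Rps4x in WT MEP, at 1995 ± 267 (median 722). Neighbours at the top did not differ beyond their spread in CMP, GMP or MEP, where Rps4x in CMP was at 2004 ± 311, Rpl3 in GMP at 1726 ± 824 and Rps27a in MEP at 1984 ± 347 CPM per kb (SD, n = 3 each). The least were Rps19bp1 in CMP (25.8 CPM per kb) and MEP (38.4), and Rpl10l, a testis paralog of Rpl10, which had no reads in any WT LSK or WT GMP library. Rpl3l, the muscle paralog of Rpl3, was at 0.284 CPM or less in each WT LSK library, and Rpl39l was at 0.240 to 3.37 CPM.

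In LSK cells, 9 of the 84 tested members were lower in KO than in WT and none was higher. Both subunits were represented, with Rpl5, Rpl27, Rpl30, Rpl36al and Rpl38 of the large and, among others, Rps27l and Rps29 of the small subunit. Of all 13878 genes, 1288 (9.28%) fell and 1322 (9.53%) rose by the same edgeR quasi-likelihood test (adjusted p under 0.05), so the count of members that fell is close to the share of all genes. The members' median log2 difference was -0.11, with 65 of 84 lower, and that of all genes was 0.01. At an unadjusted p under 0.05 stood 15 members, all lower in KO, and 4454 of all genes, 2157 of them lower.

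Rps27l, a paralog of Rps27 known as a target of p53, was at 248, 210.0, 208, 247 and 212 CPM in the 5 WT libraries and at 123 to 186 (median 154) in the 9 KO libraries. The WT and KO ranges did not overlap, and HET libraries ranged from 119 to 229 (median 195). The log2 difference of KO and WT was -0.55 (SE 0.12, adjusted p = 0.00226). Rpl27, a large-subunit protein whose gene is mutated in some Diamond-Blackfan families, was at 67.9, 56.1, 54.7, 50.9 and 48.2 CPM in WT and 28.8 to 51.7 (median 35.4) in KO. WT and KO overlapped, the HET median lay between theirs (47.6), and the log2 difference was -0.54 (SE 0.11, adjusted p = 0.00138). Rps27l and Rpl27 passed in each of 14 fits that left out 1 library and in each of 9 other settings.

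Rpl36al, the paralog of the X-linked Rpl36a, was at 216, 184, 177, 216 and 174 CPM in WT and 105 to 179.8 (median 130.2) in KO LSK. Its log2 difference was -0.51 (SE 0.14, adjusted p = 0.0147). Rpl36a itself was at 19.7 to 27.0 CPM in WT and 17.8 to 26.2 in KO, a log2 difference of -0.18 (SE 0.13) that did not pass. Rps29, a small-subunit protein that binds zinc, was at 16.5 to 23.8 CPM in the 5 WT libraries and 9.84 to 18.6 (median 13.7) in KO, and the groups overlapped. Its log2 difference was -0.54 (SE 0.16, adjusted p = 0.0175). Rpl38, which is needed for translation of Hox mRNAs in the mouse embryo, was near the low end of the members in LSK, at 4.63 to 5.36 CPM in WT and 1.77 to 4.90 (median 3.01) in KO. Its log2 difference was -0.64 (SE 0.23, adjusted p = 0.0472), and it passed in 3 of the 14 fits that left out 1 library.

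Rpl30, at 105 to 130.1 CPM in WT and 72.8 to 123 (median 83.2) in KO LSK, differed by -0.40 (adjusted p = 0.0230). Its libraries overlapped between the groups, and it passed in 12 of the 14 fits without 1 library. Rpl5 was at 167, 160.3, 166, 159.6 and 186 CPM in WT and 123 to 169 (median 134) in KO and differed by -0.25 (SE 0.08, adjusted p = 0.0229). Its partner Rpl11 was at 68.1 to 76.2 CPM in WT and 51.9 to 83.9 in KO and differed by -0.08 (95% interval -0.30 to 0.14, adjusted p = 0.672). For Rps19, the gene most often mutated in Diamond-Blackfan anaemia, the difference was 0.01 (95% interval -0.20 to 0.22), with WT at 62.7 to 74.9 and KO at 55.3 to 85.0 CPM. Of the genes mutated in Diamond-Blackfan anaemia, Rpl5, Rpl27 and Rps29 were among those that fell.

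**Figure D2:**
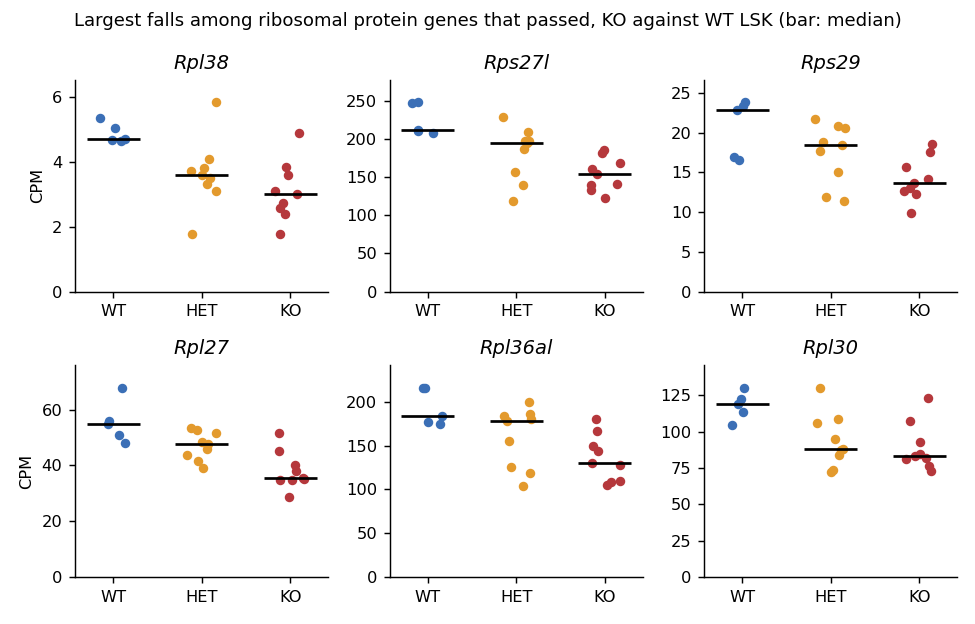
Level in CPM (y axis, from 0) of the 6 ribosomal protein genes with the largest fall among those that passed between KO and WT LSK cells, 1 point per library, with WT (n = 5), HET (n = 9) and KO (n = 9) on the x axis; bars are medians. KO libraries of Rps27l (123 to 186 CPM) lie below all WT libraries (208 to 248 CPM), and WT and KO libraries of the other 5 genes overlap.

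A library's bias for transcript length moved with these values. The index used here, the median level of genes with transcripts over 5000 bases minus that of genes under 1500 bases (log2, centred per population), was -0.23 to 0.02 in WT and -0.10 to 0.16 in KO LSK libraries. By median transcript length, which the index uses, every member is under 1500 bases (at most 1054, Rps13). The index is thus built partly from members, and as a covariate it can absorb a shift that they share with other short genes. With the index as a covariate, Rps27l (-0.33, adjusted p = 0.0295) and Rpl27 (-0.42, adjusted p = 0.0161) were the members that fell, 2 members rose, and the median was 0.02. Counts over all genes with the index are not given here. Among members, the LSK difference of KO and WT had a Spearman correlation of 0.28 with transcript length over 84 genes of the same libraries. The part of this bias in the other 7 calls was not tested further. Without WT fetus 8 of series 22, WT fetus 2 of series 19, WT fetus 1 of series 21 or KO fetus 5 of series 19, the fits left 3, 4, 5 and 5 members that fell, and other settings that moved the count by over 1.5 times are given in the closing section.

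The other paralog pairs did not pass in LSK. Per kilobase of transcript, WT LSK means were 415 ± 16.9 for Rpl22 and 301 ± 42.7 for its paralog Rpl22l1 (SD, n = 5). Rpl22l1 was at 179, 136, 137, 183 and 156 CPM in WT and 97.2 to 159 (median 126) in KO (log2 difference -0.27, SE 0.17, adjusted p = 0.278), and Rpl22 differed by 0.00 (SE 0.10). Rpl7 was at 556, 503, 529, 514 and 605 CPM in WT and differed by -0.03 in KO, and its nucleolar relative Rpl7l1 was at 163, 165, 181, 148 and 175 CPM and differed by -0.00. Rpl39l, a paralog of Rpl39 best known from male germ cells, was at 3.37, 1.22, 2.21, 1.99 and 0.240 CPM in WT and 0.323 to 1.51 (median 0.686) in KO (-1.14, SE 0.60, adjusted p = 0.187), and Rpl39 differed by -0.19 (SE 0.21). Rpl3 and Rpl10 differed by 0.00 and -0.09. Rps27 differed by -0.04 and Rps27rt by 0.21, neither of which passed.

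Markers of other cells were low or overlapped between WT and KO LSK. The 6 hepatocyte markers (Alb and Afp among them) summed to 9.93 to 12.3 CPM in WT and 4.79 to 48.9 in KO. The macrophage markers summed to 57.8 to 511 CPM in WT and 17.4 to 756 in KO, and the erythroblast markers to 107 to 1804 and 112 to 480 CPM. Their part in the members' values was not tested.

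Against HET LSK, Rpl4 (log2 difference 0.22, SE 0.06, adjusted p = 0.0137) and Rps3, which sits at the mRNA entry channel, (0.20, SE 0.07, adjusted p = 0.0431) rose in KO, and Rpl27 fell (-0.30, SE 0.09, adjusted p = 0.0380). Rpl4 was at 1187 to 1612 CPM (median 1462) in HET and 1586 to 1938 (median 1619.6) in KO, and Rps3 at 825 to 1083 (median 949) and 988 to 1421 (median 1080.2). The libraries of HET and KO overlapped for all 3. Of all genes 823 (5.93%) rose and 718 (5.17%) fell, against 2 and 1 of the 84 members, shares below those of all genes. Between HET and WT LSK no member passed (1 of 13878 genes did, 0.00721%), but 79 of 84 were lower in HET, with a median of -0.18, and 19 stood at an unadjusted p under 0.05, all lower. Of all 13878 genes 6480 were lower in HET, and 1532 stood at an unadjusted p under 0.05, of which 765 were lower. The KO comparisons with WT and with HET share the KO libraries.

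Genes whose products build or use ribosomes were counted in the same LSK test. Of 47 tested ribosome biogenesis genes 31 fell in KO against WT and none rose, with a median of -0.34. Ncl (nucleolin) was at 2433 to 2942 CPM in WT and 1625 to 2097 in KO, the groups did not overlap, and the log2 difference was -0.57 (SE 0.08, adjusted p = 2.05e-05). Ddx21, a nucleolar helicase, differed by -0.54, Rrp1b by -0.52 and Wdr75 by -0.48. Of 76 tested mitochondrial ribosomal protein genes 33 fell and none rose (median -0.26), among them Mrpl3 (-0.49), Mrpl20 (-0.60), Mrpl16 (-0.58) and Mrps15 (-0.45). With the length index as a covariate, 29 biogenesis genes and 9 mitochondrial ribosomal protein genes fell. How many of all genes fell or rose in that fit is not given here. Of 16 other genes with TOP mRNAs, Eef1d (-0.37) and Btf3 (-0.38) fell, and of 14 genes that regulate TOP translation Rptor, the mTOR partner raptor, rose (0.48, adjusted p = 0.0258) and Rheb, which activates mTOR, fell (-0.31, adjusted p = 0.0187), shares near those of all genes. With the length index 1 of the other TOP mRNAs fell, and of the 14 regulators none rose and 3 fell. None of 5 tested snoRNA host genes passed, and Gas5 differed by -0.05 (SE 0.10). Of the P stalk, which recruits elongation factors, Rplp2 had a median of 37.5 CPM in WT and reached 43.0 in KO, with overlapping libraries (-0.37, adjusted p = 0.0713), Rplp1 differed by -0.24 (adjusted p = 0.202) and Rplp0 by 0.07 (adjusted p = 0.552).

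Members on the chromosome of Smarcd2 were listed apart. Smarcd2 lies at chr11:106263179-106272972, and 7 members lie on chromosome 11. Rpl27 (chr11:101442298-101445529) is 4.82 Mb away and Rpl38 (chr11:114668524-114672331) 8.40 Mb on the other side, and both fell in LSK. Rpl19 at 8.23 Mb and Rpl23 at 8.48 Mb did not pass (-0.14 each), nor did Rpl23a, Rpl26 and Rps27a at 28.1 to 76.7 Mb. In CMP, GMP and MEP Rpl27 differed by -0.16, 0.69 and 0.63, none of which passed.

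**Figure D3:**
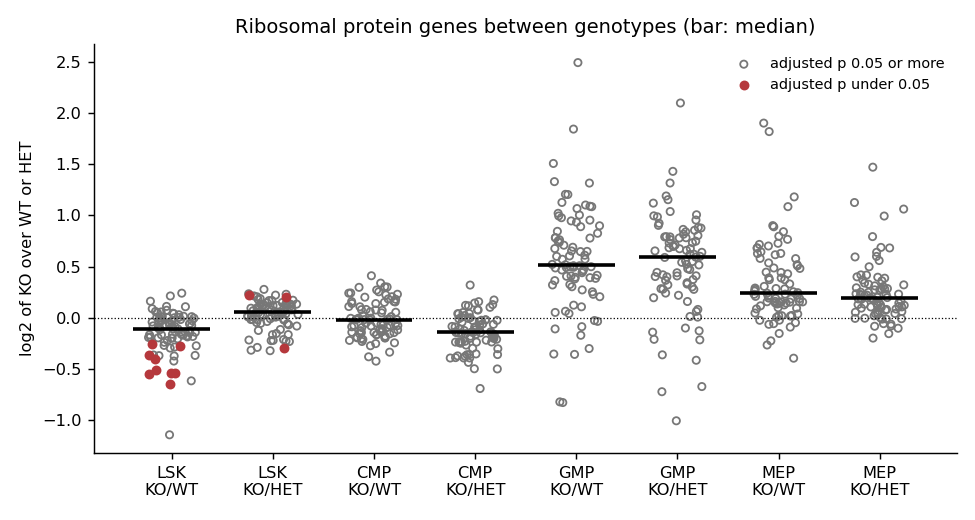
Log2 difference of KO and WT or of KO and HET (y axis) for each tested ribosomal protein gene (1 point per gene), by population and comparison (x axis); filled points have an adjusted p under 0.05 and bars are medians. Calls occur in LSK only, and the medians of GMP (0.51 and 0.59) and MEP (0.24 and 0.19) lie above 0 with a wide spread.

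In CMP no member passed between KO and WT (215 of 11658 genes did, 1.84%), and the median difference was -0.02, with 3 members at an unadjusted p under 0.05. The smallest p was that of Rps27l, at 399.6, 249 and 308 CPM in WT and 196, 270.5, 238 and 247 in KO, a log2 difference of -0.42 (SE 0.17, adjusted p = 0.296). The 2 groups overlapped. Rpl3, among the first proteins to join the large subunit, was at 1749.9, 1610.3 and 1504 CPM in WT and 1663, 2050.5, 2062 and 2845 in KO (0.41, SE 0.18, adjusted p = 0.337). Against HET none passed by edgeR either (255 genes did, 2.19%). There 14 members stood at an unadjusted p under 0.05, of which 13 were lower in KO, against 1693 of 11658 genes, of which 818 were lower. Rpl7a was at 204 to 253 CPM (median 223) in HET and 193, 208, 124 and 116 in KO (-0.50, SE 0.17, adjusted p = 0.151), Rps12 differed by -0.69 (SE 0.23, adjusted p = 0.158) and Rps21 by -0.50 (SE 0.18, adjusted p = 0.173). The KO libraries of fetuses 13 and 15 were the low ones for Rpl7a. These 2 fetuses make up series 34, which holds KO libraries only in CMP, GMP and MEP, so that series and the KO genotype cannot be told apart in them. DESeq2 called 1 member in this comparison.

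In GMP most members were higher in KO than in WT, and none passed (25 of 12239 genes did, 0.204%). The GMP HET library described above as standing apart was part of this fit, whose estimate of spread covers all genotypes. The count for KO against WT without that library is not given here. Its part in the absence of calls between KO and WT was not tested. The median log2 difference was 0.51 with 74 of 84 members higher, and 1 stood at an unadjusted p under 0.05, Rpl36. It was at 62.2, 38.8 and 30.8 CPM in WT and 128, 43.5 and 157 in KO (1.33, SE 0.62, adjusted p = 0.769). Rpl35 was at 74.3, 258 and 179 CPM in WT and 1276, 186 and 1423 in KO (2.49, SE 1.19, adjusted p = 0.784), and Rpl23a at 21.8, 24.8 and 16.2 and at 59.5, 25.1 and 71.4 (1.32, SE 0.69, adjusted p = 0.797). In all 3 genes the KO libraries of fetuses 6 and 15 were high and that of fetus 13 was close to WT. The length index was -1.19 and -1.29 in fetuses 6 and 15 and 0.10 in fetus 13, and WT libraries ranged from -0.46 to 0.65. The GMP markers summed to 12472 to 22354 CPM in KO, within the WT range. With the index as a covariate the median difference was 0.08 and again no member passed. Against HET the median was 0.59 with none passing (32 genes did, 0.261%), and with the index it was -0.02. Reads of synthetic spike-in RNA were 2.52% to 3.06% in GMP KO and at most 0.414% in every other CMP, GMP or MEP library, so spike-in share and genotype cannot be told apart here. With that share as a covariate 21 members were called lower in KO than in WT and the direction of the median turned. The count over all genes in that fit is not given here.

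In MEP, too, no member passed between KO and WT (1 of 11686 genes did, 0.00856%) or between KO and HET (2 genes, 0.0171%). The medians were 0.24 and 0.19, with 73 and 70 of 83 members higher in KO. Rpl7a was at 156, 173 and 145 CPM in WT and 186, 231, 198 and 328 in KO (0.58, SE 0.26, adjusted p = 0.685), the groups did not overlap, and it had the smallest p. For several members 1 KO library, that of fetus 15, stood far above the rest: Rps27l was at 188, 257, 300.1 and 1921 CPM in the KO libraries and 316, 248 and 318 in WT, and Rps9 at 763, 992, 1028 and 3616 CPM in KO and at most 1067 in WT. Rpl36al was at 157, 269, 245 and 1033 CPM in KO and 221, 162 and 219.5 in WT (1.09, SE 0.54, adjusted p = 0.685). That library had a length index of -1.0, and the other 3 had 0.08 to 0.30. The HET library of fetus 8 had an index of -1.32. It was at 652 CPM for Rps27l, against 193 to 334 in the other HET libraries, and at 945 for Rps9, within their range. In the KO library of fetus 15 the summed share did not stand apart, at 5.73%. With no scaling factor the MEP medians were 0.00 and 0.01, and with the length index 0.04 and 0.08. With the series number as a block the medians turned to -0.22 and -0.24. Series 34 holds KO libraries only, those of fetuses 13 and 15, so that fit compared genotypes within the other series alone. The turn can therefore not be told apart from leaving out these KO libraries. Rps27l differed by 1.18 from WT, and by -0.22 without the KO library of fetus 15. Erythroblast markers (globins, Alas2 and Slc4a1) summed to 636 to 3001 CPM in KO and 2200 to 17853 in WT MEP, and B cell markers to 73.1 to 178 and 237 to 1455 CPM. Their part in these values was not tested.

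Whether the KO effect differed between populations was tested in 1 fit over CMP, GMP and MEP. No member passed for GMP minus CMP (2 of 11829 genes did, 0.0169%), where the median difference of effects was 0.59, 75 of 83 were above 0 and 3 stood at an unadjusted p under 0.05. Rpl36 had the smallest p (1.49, SE 0.60, adjusted p = 0.683). None passed for GMP minus MEP (49 genes did, 0.414%), with a median of 0.31. Without GMP HET fetus 8 none passed in either, and the medians were 0.59 and 0.33. At an unadjusted p under 0.05 there stood 16 and 6 members, all above 0. How many of all genes did so without that library is not given here. With that library the member counts were 3 and 0, against 714 and 926 of all genes. LSK counts come from other files and were not tested against these.

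**Figure D4:**
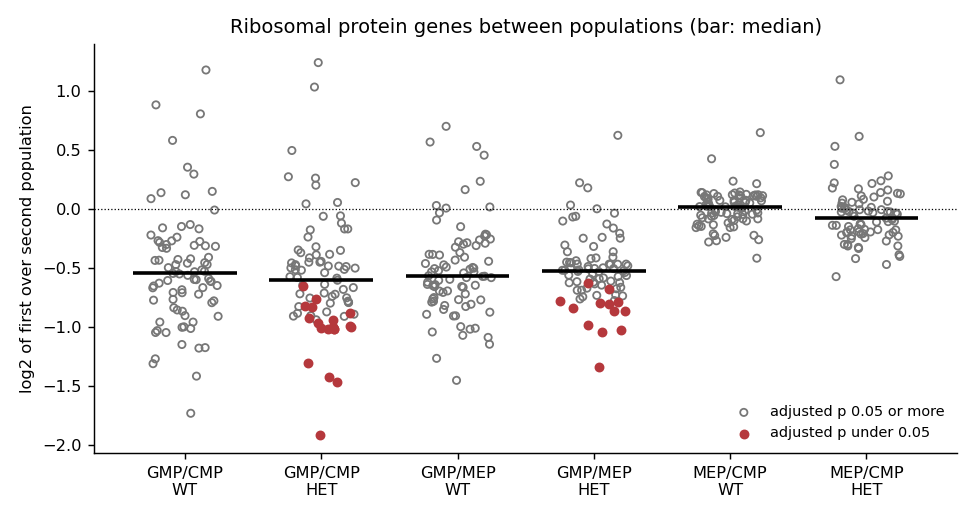
Log2 difference between populations (y axis) for each of the 83 tested ribosomal protein genes (1 point per gene), in WT and in HET fetuses (x axis); filled points have an adjusted p under 0.05 and bars are medians. Medians of GMP against CMP are -0.54 and -0.60 and of GMP against MEP -0.56 and -0.52, and those of MEP against CMP are 0.02 and -0.08.

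Between populations, most members had lower values in GMP than in CMP or MEP, and the members' medians of MEP against CMP lay near 0. Among WT libraries no member passed between GMP and CMP (122 of 11829 genes did, 1.03%), with a median of -0.54, 73 of 83 lower and 17 at an unadjusted p under 0.05, all lower (1333 of all genes, 665 lower). Rpl22, which binds RNA and is needed for early T cells, was at 453, 379.7 and 437 CPM in WT CMP and 323, 132 and 110.0 in WT GMP (-1.18, SE 0.38, adjusted p = 0.166). Every GMP library lay below every CMP library. Rpl12 differed by -1.31 (SE 0.43, adjusted p = 0.177) and Rps20 by -1.41 (SE 0.49, adjusted p = 0.196). Against MEP the median was -0.56, none passed (822 genes did, 6.95%), and 10 members stood at an unadjusted p under 0.05, all lower (2171 of all genes, 973 lower). Rpl22 differed by -1.14 (SE 0.38, adjusted p = 0.0634). Between WT MEP and WT CMP no member passed (367 genes did, 3.1%), with a median of 0.02 and none at an unadjusted p under 0.05.

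One WT GMP library was unlike the other 2. Rps12, a small-subunit protein with little unique sequence, was at 499, 328 and 412 CPM in WT CMP, at 301, 379 and 341 in WT MEP, and at 316, 34.6 and 28.6 in WT GMP. Rpl39 was at 641, 94.5 and 97.7 CPM and Rps21 at 223, 51.3 and 44.2 in the same 3 GMP libraries. In each the high library was that of fetus 2, which had the fewest reads of all 64 (1006090) and a length index of 0.65, against -0.46 and -0.38. Some HET GMP libraries were like it. With GMP scaled apart, Rps12 was at 268 CPM in WT fetus 2 and at 163, 218 and 208 in HET fetuses 1, 3 and 4. The other HET libraries were at 32.2 to 95.2 CPM. Fetuses 1, 3 and 4 had length indices of 0.43, 0.66 and 0.66 and held 1614881 to 3625082 reads. Without WT fetus 2, 12 members were called lower in WT GMP than in CMP and 11 lower than in MEP. Counts over all genes in those fits are not given here. The part of WT fetus 2 in the other values was not tested.

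HET fetuses had 7 libraries per population, and this comparison was added after the data were seen. In HET GMP 19 of 83 members fell against HET CMP and none rose, a larger share than among all genes, where 266 of 11829 fell (2.25%). The median was -0.60 and 45 members stood at an unadjusted p under 0.05, all lower (2295 of all genes, 866 lower). The median of all genes was 0.13. Without scaling 4 members fell, and with the fetus number as a block 10. Rps12 was at 398 to 1051 CPM (median 472) in CMP and at 40.1 to 254 (median 106) in GMP, with no overlap (-1.91, SE 0.40, adjusted p = 0.00163). Rps20 was at 760.2 to 1649 CPM (median 778) in CMP and 87.4 to 545 (median 322) in GMP (-1.46, SE 0.32, adjusted p = 0.00258). For Rpl39, which lies at the mouth of the exit tunnel, the CMP range was 546 to 1216 (median 569) and the GMP range 58.3 to 454 (median 208), a difference of -1.42 (SE 0.36, adjusted p = 0.0128). Rps21 differed by -1.31, Rpl28 by -1.02, Rps24 by -1.01, Rpl22 and Rpl12 by -1.0 each and Rpsa, the laminin receptor of older literature, by -0.99. Each of these 9 genes had all GMP libraries below all CMP libraries. The share of all genes that did so is not given here. Among the other members that fell the range is printed for Rpl21 alone, so the 9 are not set apart by this. The other 10 were Rpl7 (-1.0), Rpl31 (-1.01), Rpl37a (-0.97), Rps27a (-0.94), Rps23 (-0.92), Rpl17 (-0.88), Rps26 (-0.83), Rpl36a (-0.82), Rps15a (-0.76) and Rpl21 (-0.65), with adjusted p from 0.0213 for Rpl7 to 0.0454 for Rps23. Rpl21 ranged from 55.7 to 89.3 CPM in CMP and 25.5 to 61.9 in GMP and overlapped. The members that fell came from both subunits, 10 of the large and 9 of the small. Without GMP HET fetus 8, 34 members fell (685 of 11738 genes, 5.84%) and the median was -0.46.

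Against HET MEP, 13 members fell in HET GMP (703 genes, 5.94%) and none rose, with a median of -0.52. Rps12 was at 171 to 562 CPM (median 387) in MEP (-1.34, SE 0.39, adjusted p = 0.0129), Rps20 at 509 to 939 (median 665; -1.04, adjusted p = 0.0164) and Rpl22 at 242 to 478 (median 396; -0.86, adjusted p = 0.0125). Rps12, Rps20 and Rpl22 overlapped in range between MEP and GMP. Rps21 (-0.98, adjusted p = 0.0367) did not. Without GMP HET fetus 8 the count was 16 (1016 genes, 8.66%) and the median -0.37, and without scaling it was 7 and with the fetus number as a block 6. Between HET MEP and HET CMP no member passed (1212 genes did, 10.2%), and the median was -0.08. The 2 GMP comparisons share the GMP libraries. Of the other lists, 3 of 16 other TOP mRNAs, 2 of 5 snoRNA host genes, 1 of 76 mitochondrial ribosomal protein genes and none of 47 ribosome biogenesis genes fell in HET GMP against CMP. Against MEP the counts were 1, 4, 3 and 10, and 1 mitochondrial ribosomal protein gene rose.

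Some members did not follow the rest in GMP. Rpl35 was at 87.6, 282 and 198 CPM in WT GMP and 137, 75.2 and 96.3 in WT CMP (0.88, SE 0.96), and in HET it ranged from 21.9 to 1023 in GMP and 90.5 to 193 in CMP (1.24, SE 0.64, adjusted p = 0.277). Rpl3 was at 1235, 3279 and 3255 CPM in WT GMP and 1596, 1468 and 1381 in WT CMP (0.81, SE 0.51, adjusted p = 0.559). Rps19bp1 differed by 1.18 in WT and 1.03 in HET and Rpl7l1, a nucleolar paralog of Rpl7, by 0.58 and 0.50, none of which passed. Across the 83 members the HET difference of GMP and CMP had Spearman correlations of 0.28 with GC content and 0.20 with transcript length, where the points share libraries. With the length index as a covariate 61 members fell against CMP and 37 against MEP, and a fit with a GC index of each library is in the closing section. Counts over all genes with the length index are not given here. GMP markers in HET GMP ranged from 822 to 44866 CPM in sum, and their part in these values was not tested.

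**Figure D5:**
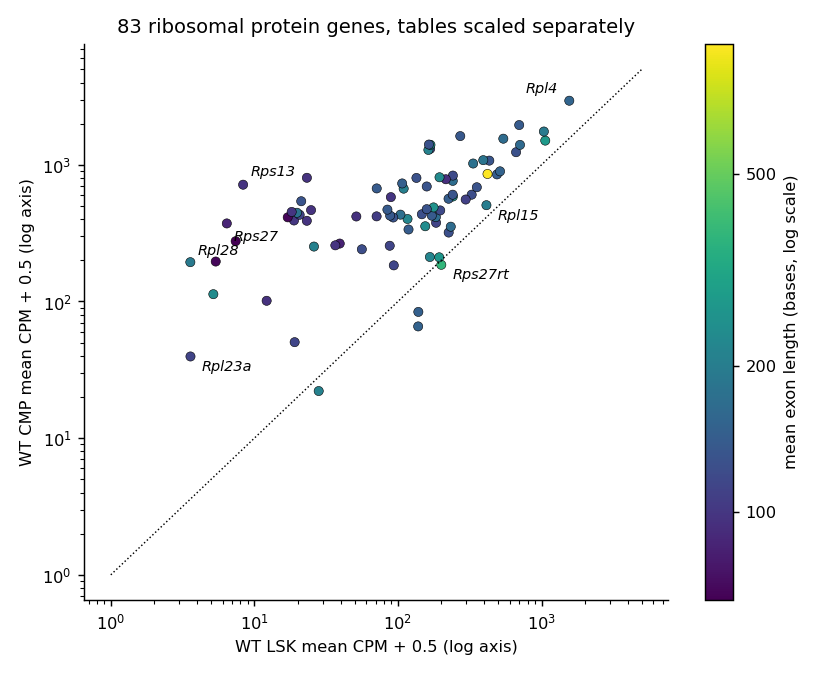
Mean WT level of the 83 ribosomal protein genes in LSK (x axis, CPM + 0.5, log axis, n = 5) and in CMP (y axis, CPM + 0.5, log axis, n = 3), coloured by mean exon length; the dotted line marks equal levels. Tables were scaled separately; 79 of 83 genes lie above the line, and Rps13, Rps27 and Rpl28 lie farthest from it.

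LSK and CMP levels were set side by side without a test, since the 2 sets of counts are separate files scaled apart. The WT mean was higher in CMP for 79 of 83 members, with a median log2 ratio of 1.78 (range -1.07 to 6.42), and 22 members exceeded 3. Over 12465 genes at 1 CPM or more in either the median was -0.36, for 76 mitochondrial ribosomal proteins 0.12 and for 16 other TOP mRNAs 0.92. Rps13 was at 7.85 CPM in WT LSK and 715 in WT CMP, Rps27 at 5.93 and 372, Rpl28 at 3.08 and 193 and Rps21 at 6.91 and 276. Rpl21 (138 and 65.2), Rpl29 (138 and 83.4), Rps19bp1 and the single-exon Rps27rt (199.9 and 185) went the other way. The ratio had a Spearman correlation over the 83 genes of -0.46 with mean exon length, -0.40 with the longest exon, -0.31 with transcript length, -0.31 with the share of unique windows and 0.02 with the number of exons. These are correlations across genes of the same libraries, and how the LSK and CMP reads were aligned and counted cannot be told apart from the populations.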

How the data were processed

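Bulk RNA from sorted cells was sequenced with Smart-seq2 and Nextera XT libraries, per the labels' protocols, a method that marks neither strand nor molecules. The deposited values are raw read counts per gene, made by the authors with featureCounts on GRCm38/mm10, per the submitters' processing notes. Which aligner and annotation release were used, and how reads with several matches were handled, is not given in the sources used here, and these steps decide how reads of paralogs and pseudogenes were split.

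Members and other genes were taken from GENCODE M21. The members and all lists were chosen with earlier results of these data known. Counts were filtered (filterByExpr, minimum count 10, minimum total 15), scaled by TMM and tested with edgeR 4.0.16 (R 4.3.3), a robust quasi-likelihood fit per population over its 3 genotypes, with Benjamini-Hochberg adjustment over all genes tested and a threshold of 0.05. Populations were compared in 1 fit over CMP, GMP and MEP, each by genotype. Synthetic spike-in reads stayed out of library sizes. Depth ran from 1006090 to 24069833 reads in genes, and levels under 1 CPM rest on few reads. Alternatives were other scaling, no filter, DESeq2 1.42.0, covariates (length, spike-in share, sex, GC), replicate blocks and leaving out libraries. The code was tested on artificial counts.

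Named with values were the paralogs and their partners, Rpl5, Rpl11 and Rps19, per comparison up to 6 members with the largest rise and 6 with the largest fall that passed (where fewer than 3 passed, the 3 with the smallest p), members of highest and lowest level per length, and up to 4 genes of each other list. Some results, including those of a few members this rule takes, are not reported here. Further members were chosen after their values were seen, among them Rps3, Rplp0, Rplp1, Rplp2, Rps9, Rps12 and Rpl35. The labels do not say that a fetus or series number marks a shared litter or batch, and the check of pairing is in the closing section.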

Additional observations from a re-analysis of the deposited data

Results flagged for a closer look

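A single library stood away from its group in 5 of 50 groups of libraries examined, where chance marks about 1 in 20. GMP HET fetus 8 accounted for 3 of them: its summed share of reads was 0.114%, Rpl23a was at 0 CPM and Rpl36 at 8.77 CPM. In LSK, Rpl5 was at 186 CPM in WT fetus 10 of series 24, above the other 4 WT libraries. In MEP, the summed share was 4.38% in KO fetus 6, below the other 3 KO libraries.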

How the results depend on the processing

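The LSK count of members that differed between KO and WT was 9. It was 5 without scaling, 5 without a count filter, 4 with the length index and 3 to 13 when 1 library was left out (3 without WT fetus 8 of series 22, 4 without WT fetus 2 of series 19, 5 without WT fetus 1 of series 21 or KO fetus 5 of series 19, 13 without KO fetus 6 of series 19). Against HET it was 3, with 1 without a filter, 7 with the length index, and 1 to 3 with 1 library left out (1 without HET fetus 5 of series 20, HET fetus 6 of series 22, or KO fetus 2 or 5 of series 22). With the series number as a replicate block the counts were 7 and 3. DESeq2 called 1 member in CMP KO against HET.

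The spike-in share as a covariate gave 21 and 19 calls in GMP KO against WT and HET, 29 for the difference of KO effects and 1 in HET MEP against CMP. In GMP KO against WT it turned Rpl22l1 to -2.57, Rpl3 to -2.78 and Rpl7l1 to -2.51, and spike-in share and genotype cannot be told apart there. With 1 library left out, the difference of KO effects had 0 to 1 calls (1 without GMP KO fetus 13). With the series number as a block 0 members were called in MEP.

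WT GMP against CMP went from 0 to 2 with DESeq2, 5 without the 3 libraries of fetus 8, and 0 to 12 with 1 library left out (12 without GMP WT fetus 2, 2 without GMP HET fetus 8). Against MEP it went from 0 to 1 with RLE factors, the spike-in share or the GC index, 4 with the length index, 3 with DESeq2, 7 without fetus 8, and 0 to 11 with 1 library left out (11 without GMP WT fetus 2, 3 without GMP HET fetus 8). HET GMP against CMP, 19 members, gave 4 without scaling, 61 when the length index was added, 42 for the spike-in share, 37 by DESeq2, 10 with the fetus number as a replicate block and 34 without GMP HET fetus 8. HET GMP against MEP, 13 members, gave 7, 37, 8, 28, 6 and 16 under the same settings. Without scaling the median of all genes moved from 0.13 to -0.16 in HET GMP against CMP. The GC index left these counts at 18 and 14. The GC index, the fits without fetus 8, the libraries left out of the difference of KO effects and of the HET comparisons, and the HET comparisons themselves were chosen after seeing the data. The causes were not tested. Counts over all genes are set beside these only for the HET comparisons without GMP HET fetus 8.

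Of 1901 values of named genes under alternatives, 1771 kept their side of the threshold, 97 lost the call, 30 gained it and 3 turned. Among the 1771 are 155 called in neither fit whose sign changed, 69 of them with 1 library left out. With the series number as a block, for example, MEP KO against HET went from 1.06 to -0.52 for Rps27l and from 0.99 to -0.05 for Rpl36al. In that fit the KO libraries of series 34, which holds no other genotype, do not bear on the difference. The shallowest library was WT GMP fetus 2, with 1006090 reads.

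Deviations from group means of libraries with the same fetus number correlated with a median of 0.16 between CMP and GMP (over 0.1 in 9 of 13 pairs), 0.27 between CMP and MEP (12 of 14) and -0.05 between GMP and MEP (5 of 13). For the same series number the medians were 0.30 in LSK (26 of 35 pairs over 0.1), 0.40 in MEP (13 of 21), 0.06 in CMP (7 of 21) and -0.12 in GMP (7 of 17). Medians for different series numbers were -0.07 in LSK, -0.04 in MEP, -0.05 in CMP and -0.14 in GMP. For different fetus numbers they were -0.03 between CMP and GMP, -0.05 between CMP and MEP and 0.09 between GMP and MEP. Since not every pair was over 0.1, the numbers were not taken to pair libraries, a rule that does not show them to be unpaired. By median, same-numbered libraries deviated together more than others in LSK, in MEP, between CMP and MEP and between CMP and GMP. Counts with a block are given above.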
